A study of Mus musculus with 8 samples.

Results

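The genes Bcl11a, Gata2, Erg, Mecom, Hlf, Myb, Sox4, Prdm16, Msi2 and Cd34, which regulate or mark blood stem and progenitor cells were examined in leukaemias that had lost a chromosome segment together with Trp53 and in leukaemias that had lost Trp53 alone. These 10 genes were taken by symbol from the deposited tables, which gave 1 row for each of the 10 among 18860 genes in all. Most encode transcription factors; Msi2 encodes an RNA-binding protein and Cd34 a surface protein. All 10 passed the filter on low values used for testing, which asked for 10 or more in 4 or more libraries.

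Total RNA was sequenced from leukaemia cells isolated from the marrow of moribund C57BL/6 mice, giving 8 libraries. The 11B3-deleted group (genotype 11B3fl/p53fl;shNf1;shMll3;Vav1-Cre, n = 4) lacks the 11B3 interval, which holds Trp53, on 1 chromosome 11 and carries a floxed Trp53 allele on the other. The p53-loss-only group (genotype p53fl/fl;shNf1;shMll3;Vav1-Cre, n = 4) has floxed Trp53 on both chromosomes and keeps the rest of the interval. Neither group is normal tissue: all libraries share Vav1-Cre, whose recombinase acts in the blood lineage, and hairpins that target the Ras inhibitor gene Nf1 and the histone methyltransferase gene Mll3. The labels mention lines and no ages, and whether each line had its own mouse is not said; p-values here rest on the variation among the 8 libraries, which may be partly technical. Library numbers are the replicate numbers of the titles.

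The 11B3-deleted libraries held between 30591456 and 35719495 recovered reads, the p53-loss-only libraries between 30502718 and 33365364. Values below are the deposited ones, read counts scaled for library size with 1 added, in which 3 reads correspond to 3.66 to 4.29. The myeloid label was checked on Mpo, myeloperoxidase of immature myeloid cells, which was at 86050.7 to 414041.1 in 11B3-deleted libraries and 75329.0 to 195095.0 in p53-loss-only libraries. Trp53 itself was at 189.2 to 392.5 in 11B3-deleted libraries and 300.2 to 577.1 in p53-loss-only libraries, a gene-level value that does not check the labels, because the unremoved exons of a floxed gene may still be transcribed. In 1 library, 11B3-deleted library 3, the summed level of 10 B lymphoid markers was 54885.0, against 404.6 to 2200.0 in the other 7 libraries. In another, 11B3-deleted library 1, the summed level of 6 erythroid markers was 131112.2, against 483.6 to 27704.7 elsewhere. In bulk RNA fewer cells of a type and less RNA per cell cannot be told apart.

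Blood stem cells keep their identity through a small set of transcription factors that bind together at shared enhancers and fall as cells mature. Gata2 and Erg belong to a group of 7 such factors. Mecom (also called Evi1) and Prdm16 are zinc-finger relatives with a PR domain, needed for stem cell maintenance and recurrently activated in myeloid leukaemia. Hlf is a leucine-zipper factor that marks stem cells, Myb drives progenitor proliferation, Sox4 acts in early B cells and in leukaemic progenitors, and Bcl11a is a zinc-finger repressor known for silencing fetal globin and for its need in lymphoid development. Msi2 is an RNA-binding protein that promotes stem cell self-renewal, and Cd34 is the sialomucin used to sort progenitors.

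The DNA just before the annotated start is shown for the 4 members whose log2 values spread most over the 8 libraries, Prdm16, Mecom, Bcl11a and Hlf. Sequences come from the RefSeq promoter table for GRCm38.p6, not the build mm9 named for the counts; they run 5′ to 3′, stop before any base annotated as exon, and have CG dinucleotides in capitals.
Bcl11a, chr11:24080445-24080669, plus strand: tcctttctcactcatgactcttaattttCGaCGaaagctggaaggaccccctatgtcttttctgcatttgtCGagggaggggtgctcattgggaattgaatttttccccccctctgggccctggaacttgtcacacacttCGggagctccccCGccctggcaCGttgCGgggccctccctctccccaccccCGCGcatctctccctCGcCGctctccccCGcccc
Mecom, chr3:30509823-30510009, minus strand: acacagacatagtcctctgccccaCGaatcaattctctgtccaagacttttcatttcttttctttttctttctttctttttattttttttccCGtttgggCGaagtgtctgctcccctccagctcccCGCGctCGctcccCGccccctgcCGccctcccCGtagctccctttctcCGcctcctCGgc
Prdm16, chr4:154636874-154637123, minus strand: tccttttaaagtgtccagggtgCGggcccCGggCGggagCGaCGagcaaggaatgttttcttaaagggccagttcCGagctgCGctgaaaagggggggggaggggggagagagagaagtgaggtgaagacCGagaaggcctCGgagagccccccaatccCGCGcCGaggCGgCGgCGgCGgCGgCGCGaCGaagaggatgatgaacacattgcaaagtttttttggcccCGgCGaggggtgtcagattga
Hlf, chr11:90390918-90391167, minus strand: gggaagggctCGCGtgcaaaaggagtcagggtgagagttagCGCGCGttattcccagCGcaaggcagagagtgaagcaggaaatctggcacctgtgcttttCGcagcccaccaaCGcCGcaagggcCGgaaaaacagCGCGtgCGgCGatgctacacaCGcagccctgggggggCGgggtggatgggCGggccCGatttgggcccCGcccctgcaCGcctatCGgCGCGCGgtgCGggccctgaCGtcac

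All 10 members matched the promoter table, with 16 windows of 250 bases before a start. The Prdm16 window holds 22 CG dinucleotides, that of Hlf 26, that of Bcl11a 16 and the upstream Mecom window 14, where the median of 32851 windows in the table was 6. Mecom has 2 listed starts, the upstream one shown here and a second that lies inside annotated exon, and the gene-level counts do not separate transcripts from them. A GATA motif (AGATAA or its complement TTATCT) was found in 1 of the 16 windows, the third of Erg, against 9.99% of all windows. An ETS motif (GGAAGT or ACTTCC) was in 0 of 16, against 19.7% of all windows, and a RUNX motif (TGTGGT or ACCACA) in 0 of 16, against 14.0%. An E-box (CAGCTG, the same on either strand) was in 1 of 16, that of Sox4, against 13.0%. These motifs share no letters with each other in the member windows, and the 3 Msi2 windows overlap.

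Compared between genotypes, Bcl11a and Hlf had higher and Gata2 lower means in the 11B3-deleted leukaemias, but no member passed the test over all genes. Of the 10 members, 5 had a higher and 5 a lower mean log2 value, where 51.6% of all tested genes had a higher one, with a median log2 difference of 0.10, beside 0.01 over all 14679 tested genes. With limma, 0 of 10 members were called at an adjusted p of 0.05, where 0.0136% of all tested genes were. At an unadjusted p under 0.05 limma gave 3 members, 2 higher and 1 lower, where 3.56% of all tested genes passed, 1.18% higher and 2.38% lower. edgeR and DESeq2 also called 0 members, where they called 1 and 58 of all 14679 tested genes. They gave 2 and 3 members at an unadjusted p under 0.05, where 617 and 795 of all tested genes passed. The libraries of the groups overlapped in all 10 members, and 2.15% of all tested genes did not overlap. Without 11B3-deleted library 3, which was rich in B lymphoid markers, the log2 difference was 1.98 for Bcl11a, -0.99 for Gata2, -0.72 for Erg, 1.15 for Mecom and 2.30 for Hlf. It was then -0.05 for Myb, 0.03 for Sox4, -5.68 for Prdm16, -0.13 for Msi2 and -0.04 for Cd34, and again no member was called. 

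**Figure D1:**
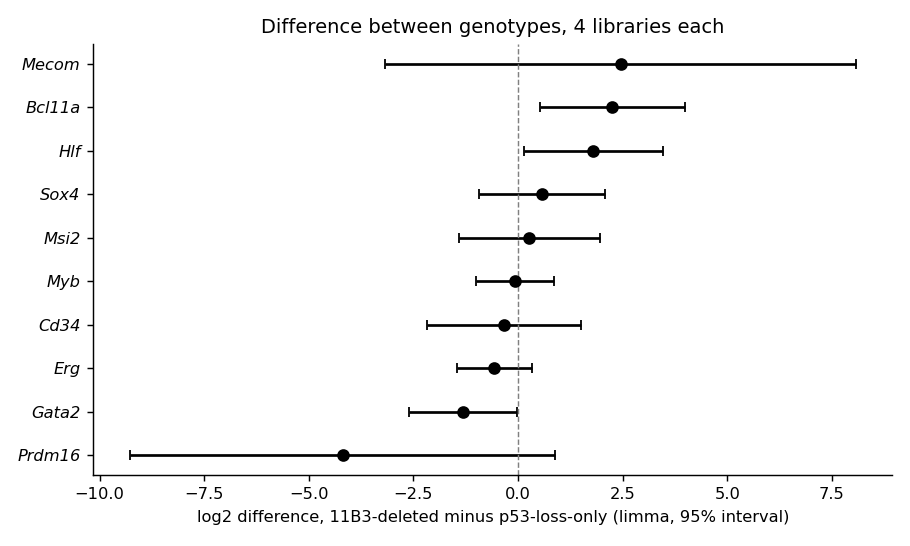
Log2 difference between genotypes for each member, 11B3-deleted minus p53-loss-only, with the 95% interval from the limma fit over 4 libraries each. The interval leaves out 0 for Bcl11a, Hlf and Gata2 before adjustment, and those of Mecom and Prdm16 are the widest.

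The members varied far more among libraries than most genes. Their median SD of log2 values over the 8 libraries was 1.24, beside 0.44 over all tested genes. Prdm16 and Mecom were among the most variable of all, with only 8 and 9 of the 14679 tested genes having an SD as large or larger, themselves included. Bcl11a was at percentile 96.2 of this spread, Hlf at 93.8, Cd34 at 91.9, Msi2 at 89.7, Gata2 at 88.6 and Sox4 at 85.8. Erg and Myb varied least, at percentiles 71.3 and 69.1.

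Per kilobase of annotated exon, Myb had the highest level of the 10, with a median over the 8 libraries of 1458 scaled reads per kilobase. Erg followed at 730.0, then Cd34 at 457, Gata2 at 266 and Msi2 at 146. Bcl11a was at 84.4, Prdm16 at 34.4, Mecom at 11.6, Sox4 at 11.3 and Hlf at 4.66. Myb, at 903 to 3546, and Erg, at 242 to 969.6, overlapped little over libraries, whereas the ranges of Gata2 (57.3 to 512) and Msi2 (29.1 to 290.3) overlapped widely. Mecom (0.794 to 1175) and Prdm16 (0.231 to 849.9) each spanned nearly the whole order.

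**Figure D2:**
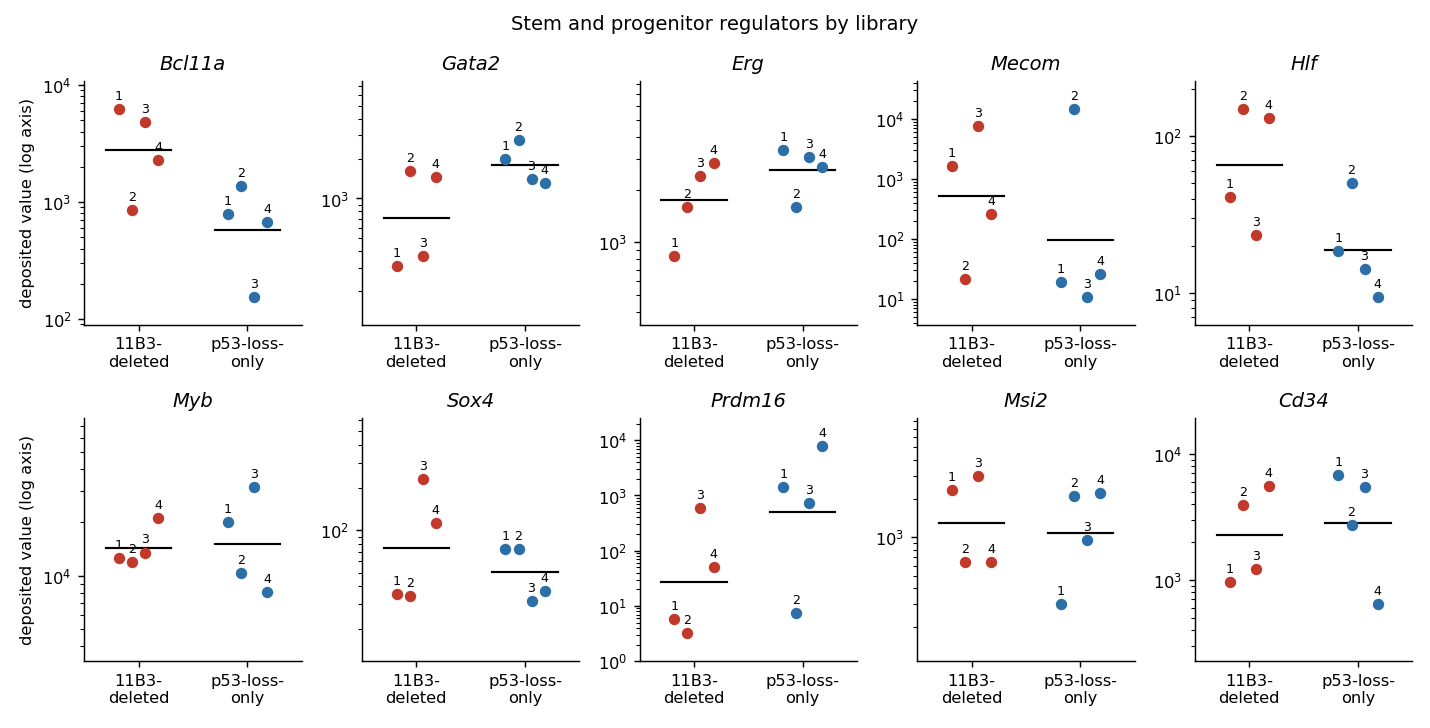
Deposited value of each member in every library on a log axis, 11B3-deleted left and p53-loss-only right, with the replicate number beside each point and the geometric mean as a bar. In every panel the groups overlap; Mecom and Prdm16 run from a few reads to over 7000 across libraries.

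Bcl11a, the zinc-finger repressor, was at 6228.9, 855.4, 4859.0 and 2276.6 across 11B3-deleted libraries 1 to 4, against 791.4, 1371.6, 155.6 and 680.4 across p53-loss-only libraries 1 to 4. The 11B3-deleted libraries 1, 3 and 4 lay above every p53-loss-only library, and 11B3-deleted library 2 lay within the p53-loss-only range. Its mean was 3555 ± 2434 in 11B3-deleted libraries and 749.8 ± 498.8 in p53-loss-only libraries (SD, n = 4 each). The log2 difference was 2.25 (SE 0.77, 95% interval 0.51 to 3.99; limma adjusted p = 0.996, unadjusted p = 0.0168). With DESeq2 it had an adjusted p of 0.115. Without 1 library at a time the log2 difference ranged from 1.62, without p53-loss-only library 3, to 2.82, without 11B3-deleted library 2, and it was 1.98 without the library rich in B lymphoid markers.

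Bcl11a ran with the erythroid markers across libraries. The erythroid sum was 131112.2, 4588.6, 27704.7 and 10615.8 across 11B3-deleted libraries 1 to 4, against 11069.6, 19757.4, 483.6 and 1125.6 across p53-loss-only libraries 1 to 4, so that the library highest and the library lowest in that sum were also the highest and the lowest in Bcl11a. Over the 8 libraries Pearson's r was 0.91 (exact permutation p = 0.00243) and Spearman's rho 0.88 (exact permutation p = 0.00724). It did not pass adjustment over the 72 relations of 8 members with 9 marker sums (adjusted p = 0.114). The B lymphoid sum, Mecom and Prdm16 were left out of these relations, each for a gap of over 8-fold between neighbouring values. With the 2 libraries farthest from the median erythroid sum left out, r was 0.72 (exact permutation p = 0.0889), so the relation rests in part on them, and it was 0.88 when each library was set against its genotype mean. The part of erythroid cells in the Bcl11a difference was not tested. Of the 6 erythroid markers, all had a higher mean log2 value in 11B3-deleted libraries, none was called and none was at 0 reads in any library. Without p53-loss-only library 3, 4 of the 6 were higher. For Alas2 and Hbb-b1 the mean of the deposited values was lower in 11B3-deleted libraries, at 415.8 against 604.2 and 2325 against 2643.

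Among partners and known targets of Bcl11a, 11 of 14 listed genes were tested, 8 with a higher and 3 with a lower mean log2 value, and none was called or had an unadjusted p under 0.05 with limma (median log2 difference 0.15). Rcor1, a corepressor subunit, was at 5119 ± 1337 in 11B3-deleted libraries and 3958 ± 311.2 in p53-loss-only libraries (SD, n = 4 each). Embryonic globin RNA was scarce: Hbb-y was at 1.0 to 13.7 in 11B3-deleted libraries and 1.0 to 8.3 in p53-loss-only libraries. Il7r, the interleukin 7 receptor of lymphoid progenitors, was at 5270.9 in 11B3-deleted library 3, the library rich in B lymphoid markers, and at 69.0 to 257.9 in the other libraries.

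Gata2, a zinc-finger factor of stem cells and of mast cells, was at 310.5, 1599.1, 367.4 and 1460.1 across 11B3-deleted libraries 1 to 4, against 1967.3, 2763.3, 1408.9 and 1314.0 across p53-loss-only libraries 1 to 4. Replicates 1 and 3 of the 11B3-deleted group were lowest, and their replicates 2 and 4 lay within the p53-loss-only range. The mean was 934.3 ± 690.2 in 11B3-deleted libraries and 1863 ± 665.6 in p53-loss-only libraries (SD, n = 4 each), and limma put the log2 difference at -1.31 (SE 0.57, 95% interval -2.60 to -0.02; adjusted p = 0.996, unadjusted p = 0.0466). The log2 difference was -0.91 without 11B3-deleted library 1 and -0.99 without 11B3-deleted library 3.

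The 2 libraries low in Gata2 were also the lowest in summed mast and basophil markers. That sum was 536.0, 1501.2, 432.3 and 4585.9 across 11B3-deleted libraries 1 to 4, against 1749.8, 967.9, 2335.6 and 587.8 across p53-loss-only libraries 1 to 4. Of its 6 markers 5 were tested, 3 with a higher and 2 with a lower mean log2 value, and Fcer1a, which had no read in at least 1 library, was not. Within the sum, Cpa3 and Mcpt8 were lowest in 11B3-deleted libraries 1 and 3. Ms4a2 was lowest in p53-loss-only library 2, at 49.6, and Hdc and Prss34 in p53-loss-only library 3, at 29.5 and 2.1. Over all 8 libraries Gata2 and this sum had r = 0.59 (exact permutation p = 0.133) and rho = 0.55 (exact permutation p = 0.171), with an adjusted p of 0.457 for each. Of the 9 marker sums, Pearson's r with Gata2 was highest for T and NK markers, at 0.77 (exact permutation p = 0.0221, adjusted p = 0.285; rho = 0.55, exact permutation p = 0.171), and r was 0.73 without the 2 libraries farthest from the median sum (exact permutation p = 0.0333). Spearman's rho was highest for mature granulocyte markers, at 0.88 (exact permutation p = 0.00724, adjusted p = 0.193; r = 0.61, exact permutation p = 0.0535), and r was 0.64 without the 2 farthest libraries (exact permutation p = 0.164). The part of these cells in the Gata2 difference was not tested.

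Erg, an ETS factor of stem cells and endothelium, was at 838.7, 1591.5, 2386.4 and 2828.7 across 11B3-deleted libraries 1 to 4, against 3361.7, 1581.7, 3065.8 and 2676.0 across p53-loss-only libraries 1 to 4. The groups overlapped, with 11B3-deleted library 1 lowest. Its log2 difference of -0.57 (SE 0.39, 95% interval -1.46 to 0.32) did not pass, and it was -0.22 without 11B3-deleted library 1. Cdh5, the cadherin that defines endothelium, was at 78.5 to 145.4 in 11B3-deleted libraries and 29.5 to 118.4 in p53-loss-only libraries. Pecam1, the largest part of the summed endothelial markers, was lowest in 11B3-deleted library 1, at 1770.1. Erg and that sum had r = 0.56 (exact permutation p = 0.159, adjusted p = 0.49), and r fell as low as -0.12 with 1 library left out. With summed myeloid blast markers Erg had r = 0.73 (exact permutation p = 0.0398, adjusted p = 0.296) and rho = 0.86 (exact permutation p = 0.0107, adjusted p = 0.193).

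The 7-factor group that holds Gata2 and Erg had 1 higher and 6 lower mean log2 values (median log2 difference -0.14), none called. Tal1 was the one with the higher mean, at 5435.1, 476.6, 1472.4 and 1474.3 across 11B3-deleted libraries 1 to 4, against 639.0, 2379.9, 51.4 and 72.3 across p53-loss-only libraries 1 to 4. Tal1 also acts in erythroid cells, and its highest and lowest libraries were those highest and lowest in the erythroid sum. Of the 6 lower means, those of Fli1 and Runx1 were close to 0 (log2 differences -0.0035 and -0.021). With 1 library left out, the group had 3 higher and 4 lower means without 11B3-deleted library 1, 2 or 3 or p53-loss-only library 1 or 3. The median stayed negative in each case.

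Mecom and Prdm16, the PR-domain relatives, were each high in some leukaemias and near the floor in others. Mecom was at 1625.6, 21.4, 7639.8 and 263.7 across 11B3-deleted libraries 1 to 4, against 19.4, 14607.2, 10.9 and 25.5 across p53-loss-only libraries 1 to 4. Prdm16 was at 5.9, 3.2, 594.2 and 49.8 across 11B3-deleted libraries 1 to 4, against 1416.7, 7.4, 739.0 and 7922.8 across p53-loss-only libraries 1 to 4. The larger of the 2 values was over 700 in 6 of the 8 libraries, and in 5 of those 6 it exceeded the smaller by 68.0-fold or more. Only 11B3-deleted library 3 had both genes high, with Mecom 12.9-fold above Prdm16.

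Neither gene separated the genotypes. The Mecom log2 difference was 2.45 (SE 2.49, 95% interval -3.18 to 8.08), although the mean of the deposited values was lower, at 2388 ± 3572 in 11B3-deleted libraries against 3666 ± 7294 in p53-loss-only libraries (SD, n = 4 each). On the recovered reads the log2 difference was -0.61 with edgeR and -0.63 with DESeq2, but 3.57 with limma voom and sample weights. With single libraries left out of the limma fit it lay between 1.15, without 11B3-deleted library 3, and 4.88, without p53-loss-only library 2. Prdm16 had a log2 difference of -4.19 (SE 2.25, 95% interval -9.28 to 0.89; limma adjusted p = 0.996), at 163.3 ± 288.1 in 11B3-deleted libraries and 2522 ± 3647 in p53-loss-only libraries (SD, n = 4 each). The p53-loss-only libraries 1, 3 and 4 were above every 11B3-deleted library in Prdm16, and p53-loss-only library 2, the library highest in Mecom, was at 7.4.

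The libraries highest in Bcl11a were those with more Mecom. The 4 libraries with the most Bcl11a were 11B3-deleted libraries 1, 3 and 4 and p53-loss-only library 2. They were also the 4 with the most Mecom, at 263.7 to 14607.2, and the other 4 had Mecom at 10.9 to 25.5. Since the Mecom and Prdm16 values fell into separate sets of libraries, with a gap of over 8-fold between neighbouring values, no correlation of either gene with a single member or a marker sum is given.

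Hlf, the stem cell leucine-zipper factor, was at 41.0, 148.4, 23.3 and 130.6 across 11B3-deleted libraries 1 to 4, against 18.5, 50.5, 14.2 and 9.5 across p53-loss-only libraries 1 to 4. Replicates 2 and 4 of the 11B3-deleted group were highest and the rest overlapped. The mean was 85.83 ± 62.82 in 11B3-deleted libraries and 23.17 ± 18.61 in p53-loss-only libraries (SD, n = 4 each). The limma fit gave Hlf 1.80 on the log2 scale (SE 0.73, 95% interval 0.14 to 3.46; adjusted p = 0.996, unadjusted p = 0.0366). At 8 or more reads in every library Hlf was the scarcest member per kilobase, and the added 1 slightly understates its fold.

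The 2 libraries highest in Hlf were those where the larger of the Mecom and Prdm16 values was lowest, at 21.4 and 263.7. That larger value was 739.0 to 14607.2 in the other libraries. Both low values were of Mecom, and 11B3-deleted library 4, at 263.7, was also among the 4 libraries with the most Mecom. The 2 libraries highest in Hlf were also highest in the summed level of Hoxa5, Hoxa7, Hoxa9 and Hoxa10, homeobox genes of progenitors and myeloid leukaemia. This sum was chosen after its values were seen. That sum was 77.1, 1598, 54.3 and 1038 across 11B3-deleted libraries 1 to 4, against 12.6, 292.7, 11.0 and 22.4 across p53-loss-only libraries 1 to 4. In 11B3-deleted library 2 Hoxa7 led with 907.1, and in 11B3-deleted library 4 Hoxa9 led with 722.6.

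**Figure D3:**
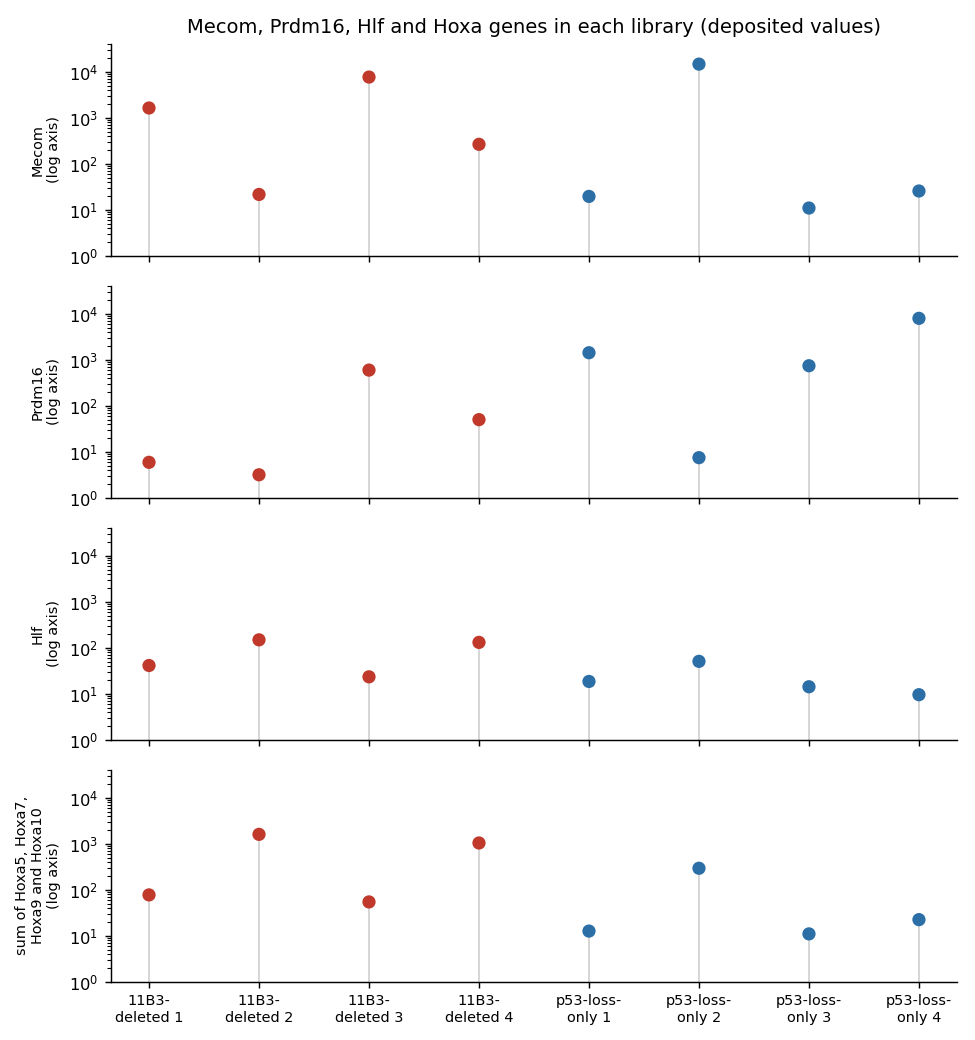
Deposited values of Mecom, Prdm16, Hlf and the sum of 4 Hoxa genes in each library on log axes, 11B3-deleted libraries left and p53-loss-only libraries right. In 6 libraries the plot shows Mecom or Prdm16 over 700, and 11B3-deleted libraries 2 and 4 have the highest Hlf and Hoxa levels.

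Myb, the progenitor factor, was the steadiest member, at 12532.9, 11922.4, 13509.7 and 21073.8 across 11B3-deleted libraries 1 to 4, against 19950.6, 10338.4, 31672.9 and 8063.3 across p53-loss-only libraries 1 to 4. The 11B3-deleted values all lay inside the p53-loss-only range, and the log2 difference was -0.08 (SE 0.41, 95% interval -1.01 to 0.86). It became 0.01 without 11B3-deleted library 2, 0.06 without p53-loss-only library 1 and 0.28 without p53-loss-only library 3. Of 11 partners and known targets of Myb, all tested, 7 had a higher and 4 a lower mean log2 value (median log2 difference 0.09), and none was called. Cyclin B1 (Ccnb1) was at 3237 ± 773.7 in 11B3-deleted libraries and 2070 ± 233.3 in p53-loss-only libraries (SD, n = 4 each), which did not overlap (limma log2 difference 0.62, SE 0.19, adjusted p = 0.996).

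Sox4, the SoxC factor, was at 35.2, 34.4, 231.7 and 111.9 across 11B3-deleted libraries 1 to 4, against 72.9, 73.5, 31.7 and 37.2 across p53-loss-only libraries 1 to 4. Its highest library was 11B3-deleted library 3, where Igll1, a surrogate light chain of early B cells, was at 9387.4 and Ebf1, a B lineage factor, at 3606.7. The log2 difference of 0.58 (SE 0.67, 95% interval -0.93 to 2.08) became 0.03 without that library. All 10 B lymphoid markers were tested and had a higher mean log2 value in 11B3-deleted libraries (median log2 difference 1.83). Without that library 7 of the 10 were higher, with a median log2 difference of 0.30. None of the markers was called, and none was at 0 reads in any library. Their part in the Sox4 value was not tested.

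Msi2, the RNA-binding protein, was at 2317.8, 635.9, 3021.3 and 640.0 across 11B3-deleted libraries 1 to 4, against 304.0, 2077.1, 956.1 and 2225.6 across p53-loss-only libraries 1 to 4. Each genotype held libraries at both ends of the range, and the log2 difference was 0.27 (SE 0.74, 95% interval -1.41 to 1.95). It became -0.007 without 11B3-deleted library 1, -0.13 without 11B3-deleted library 3 and -0.34 without p53-loss-only library 1, and was 0.92 with limma voom and sample weights. Cd34 was at 967.5, 3932.1, 1215.5 and 5574.7 across 11B3-deleted libraries 1 to 4, against 6801.0, 2733.1, 5463.9 and 643.1 across p53-loss-only libraries 1 to 4. Its log2 difference was -0.34 (SE 0.81, 95% interval -2.17 to 1.5), and it became 0.07 without 11B3-deleted library 1 and 0.08 without p53-loss-only library 1.

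Libraries high in Msi2 were low in Cd34, in either genotype. The 4 libraries with Msi2 above 2000 had Cd34 at 643.1 to 2733.1, and the 4 with less Msi2 had Cd34 at 3932.1 to 6801.0. Pearson's r over the 8 libraries was -0.85 (exact permutation p = 0.0116) and Spearman's rho -0.83 (exact permutation p = 0.0154). It was -0.84 with the 2 libraries farthest from the median of Msi2 left out (exact permutation p = 0.0375) and -0.85 when each library was set against its genotype mean. Myb and Cd34 went together, with r = 0.75 (exact permutation p = 0.0345) and rho = 0.71 (exact permutation p = 0.0576), and r = 0.69 without the 2 farthest libraries (exact permutation p = 0.121). After Benjamini-Hochberg adjustment over the 45 pairs of members neither relation passed (exact permutation test, adjusted p = 0.309 for Msi2 and 0.31 for Myb).

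The 10 members did not move as a block. Leaving out Mecom and Prdm16, whose libraries split, 28 pairs remained, of which 16 had a positive and 12 a negative r, with a median of 0.07. With p-values adjusted over all 45 pairs none of the 28 passed, and 2 had an unadjusted p under 0.05 with Pearson's r and 2 with Spearman's rho (exact permutation test, n = 8). Members on chromosome 11, which carries the deletion, were 3, Bcl11a, Hlf and Msi2, and all 3 lie outside the interval from Sco1 to Alox12, with at least 272 annotated protein-coding genes of the deposited tables between each and the nearer end.

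**Figure D4:**
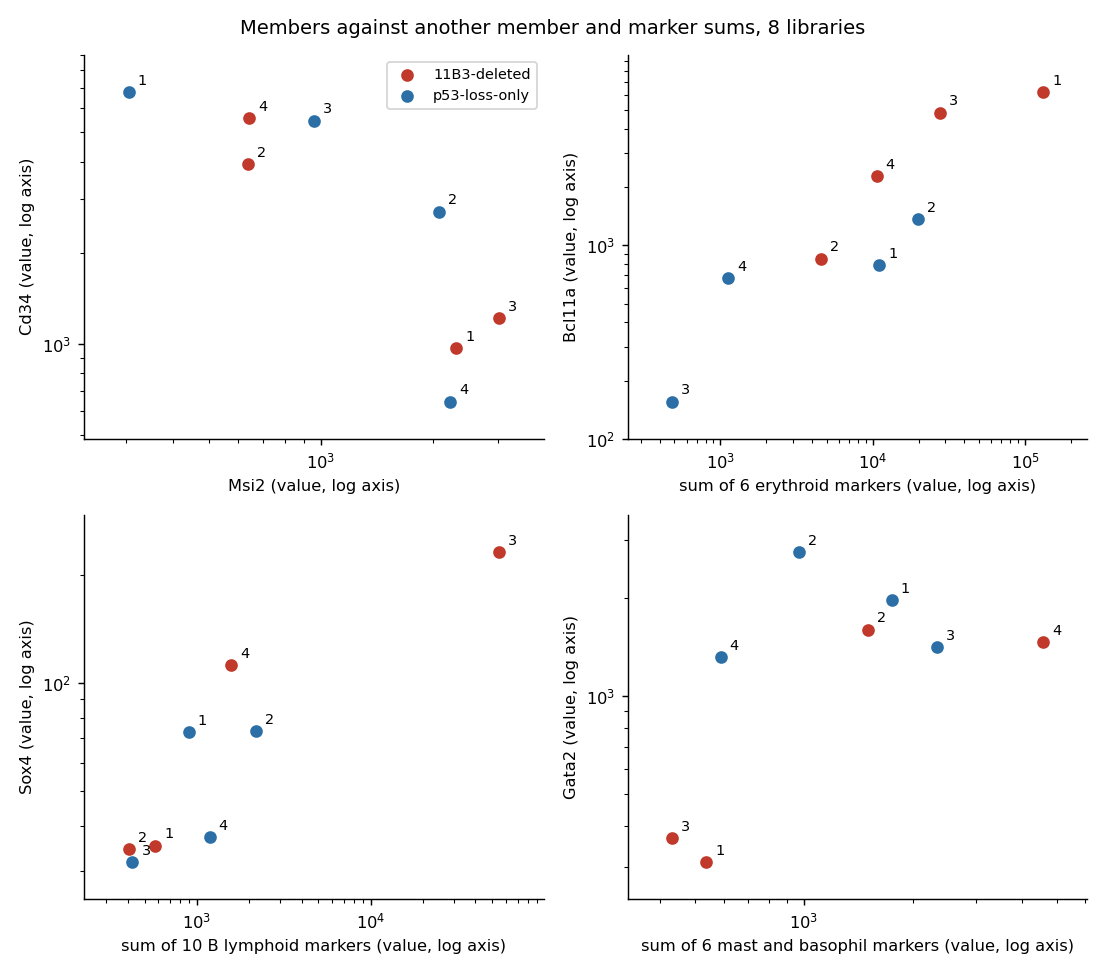
Each point is 1 library, with its replicate number, on log axes of deposited values or marker sums: Cd34 against Msi2, Bcl11a against the erythroid sum, Sox4 against the B lymphoid sum, and Gata2 against the mast and basophil sum. Cd34 falls as Msi2 rises (r = -0.85), Bcl11a rises with the erythroid sum (r = 0.91), and 11B3-deleted library 3 stands alone in the B lymphoid panel.

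Genes with the most similar profiles over the 8 libraries were ranked by Pearson's r as a description. For Bcl11a they were Ntn4, a netrin (r = 0.98), the exonuclease gene Exo1 (0.96) and Gse1 (0.96), and 0.525% of tested genes reached 0.9. Ntn4 was at 412.0, 10.7, 115.4 and 57.8 across 11B3-deleted libraries 1 to 4, against 27.2, 35.9, 1.0 and 10.6 across p53-loss-only libraries 1 to 4. The fifth for Bcl11a, Tfr2, a transferrin receptor of erythroid cells and liver, was at 5802.2 in 11B3-deleted library 1 and at 13.1 in p53-loss-only library 3. For Cd34 they were Stard8 (0.98), Ccdc88c (0.98) and Rhbdf1 (0.98), with 1.83% of tested genes at 0.9 or more, the largest share of the 10 members.

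Gata2 was matched most closely by Ppt2 (r = 0.97 over 8 libraries), Amy1 and Ric3, and Msi2 by Stau2, another RNA-binding protein (0.97), Gzf1 and Phtf2. Closest to Myb were Psd4 (0.97), Sypl and Cebpg, and closest to Erg were Gnptg (0.95), Zfp764 and Elmo1. Sox4 was nearest to Siglecg, a sialic acid receptor of B cells (0.97), Zcwpw1 and Rras2, with Ebf1 the fifth, and Hlf to Chst11 (0.94), Kcnd1 and Rora. The same ranking placed Spon2 first for Mecom, at 62.5, 9.6, 168.7 and 11.7 across 11B3-deleted libraries 1 to 4, against 4.9, 166.1, 3.2 and 5.3 across p53-loss-only libraries 1 to 4. It placed Tmsb10 first for Prdm16, at 4799.5 to 7315.1 in 11B3-deleted libraries and 4681.7 to 9162.3 in p53-loss-only libraries.

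Close relatives of the members were described from a list of 16 genes, of which 14 were tested, 9 with a higher and 5 with a lower mean log2 value, none called (median log2 difference 0.18). Podxl, a sialomucin related to Cd34, was at 6149.8, 214.1, 519.6 and 939.1 across 11B3-deleted libraries 1 to 4, against 443.8, 140.4, 15.3 and 105.4 across p53-loss-only libraries 1 to 4. Its log2 difference was 3.16 (SE 1.19, limma adjusted p = 0.996), the opposite sign to that of Cd34, and the groups overlapped. Gata1, the erythroid relative of Gata2, was at 5043.6 in 11B3-deleted library 1 and at 9.8 in p53-loss-only library 3, the extremes of the erythroid sum as well. Bcl11b, the T cell relative of Bcl11a, was at 14.6 to 450.1 in 11B3-deleted libraries and 68.1 to 595.3 in p53-loss-only libraries.

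Other stem and progenitor regulators numbered 40, of which 36 were tested, 22 with a higher and 14 with a lower mean log2 value (median log2 difference 0.29). None was called, and 2 were higher at an unadjusted p under 0.05 with limma, where 1.18% of all tested genes were. The limma log2 difference of Hoxa7 was 4.05 (SE 1.40) and that of Meis1, a homeobox partner of Hox proteins, was 2.13 (SE 0.92), each at an adjusted p = 0.996. Meis1 was at 44.9, 12.8, 60.1 and 263.7 across 11B3-deleted libraries 1 to 4, against 11.7, 37.7, 5.4 and 10.6 across p53-loss-only libraries 1 to 4. The groups overlapped in both genes. Factors such as Fli1, at 2502.3 to 3510.3 in 11B3-deleted libraries and 2628.5 to 3432.0 in p53-loss-only libraries, and Bmi1, at 1945.4 to 2660.1 and 1769.8 to 2323.0 in the same order of groups, stayed within narrow ranges.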

How the data were processed

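RNA of 8 leukaemia libraries, 4 per genotype, was sequenced by the authors; groups come from the sample titles. STAR, HTSeq, DESeq and mm9 appear in the submitters' processing notes with no role or version. Each deposited signal value is a library-scaled count of reads with 1 added, as the values show: dividing by that step gave whole reads for 100% of values (tolerance 0.02), and edgeR on those reads called 1 gene. Strand use and the handling of shared reads: not given in the sources used here. Antisense and overlapping genes may therefore share reads.

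Log2 deposited values (the deposited 1 as pseudocount, which understates folds of low genes) were fitted with limma 3.58.1 with a mean-variance trend in R 4.3.3, two-sided, group as the only term, on the 14679 genes reaching 10 in 4 or more libraries, with Benjamini-Hochberg adjustment at 0.05. edgeR 4.0.16 and DESeq2 1.42.0 on recovered reads, other scalings, filters, constants and left-out libraries were alternatives. The fit was tested on simulated data. Correlations used exact permutation over 40320 arrangements. Every pair of libraries differed beyond sampling noise (lowest chi-square 86.8 per degree of freedom). Gene lengths and gene order came from GENCODE M21 (GRCm38), which holds 17888 of the 18860 identifiers, and promoters from RefSeq. Members and lists were chosen with earlier results of these data known. Named genes are the members, the 5 genes most correlated with each (mean value at least 50, no predicted genes) and up to 4 genes per list with the smallest p; others were chosen after their values were seen. Marker lists for plasmacytoid dendritic, megakaryocyte, endothelial, T and NK, myeloid, granulocyte and monocyte cells were summed in the same way.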

Additional observations from a re-analysis of the deposited data

Results flagged for a closer look

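Mecom in p53-loss-only library 2, at 14607.2, stood far above the other 3 libraries of its group, at 10.9 to 25.5. On the log2 scale the gap to the next library was 0.882 of the group's range, above the 95% critical value of Dixon's test for 4 samples. It was the only one of 20 groups (10 members in 2 genotypes) to pass, and about 1 in 20 groups passes without any cause. Mecom was also at 1625.6 and 7639.8 in 11B3-deleted libraries 1 and 3.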

How the results depend on the processing

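No member was called in any of the 17 alternatives. Of 169 member results under them, 158 kept the direction of the log2 difference and 11 reversed, in Mecom, Myb, Msi2 and Cd34. Mecom, 2.45, was 3.57 with limma voom and sample weights and became -0.61 with edgeR and TMM factors, -0.63 with edgeR and RLE factors and -0.63 with DESeq2. With single libraries left out, the log2 difference ranged from -0.38 to 0.28 for Myb, -0.34 to 0.62 for Msi2 and -1.05 to 0.084 for Cd34. The median log2 difference over members, 0.10, became -0.34 with edgeR and TMM factors, -0.33 with RLE factors, -0.33 with DESeq2 and -0.077 with a minimum value of 50, where Hlf was no longer tested; it ranged from -0.043, without 11B3-deleted library 3, to 0.31 with single libraries left out. The count of genes called over all tested genes, 2, was 1 with edgeR under either scaling, 58 with DESeq2, 0 with limma voom and sample weights, 1 with a constant of 5 added, 1 with a minimum of 50 and 0 to 1 with single libraries left out. With the replicate number as a block it was 0. Same-numbered libraries had correlations of -0.41 to -0.03 in deviations from their group means, which cannot decide whether they shared a batch. No pair of members passed under any alternative, and the median pairwise r over all 45, with Mecom and Prdm16 included, was 0.03 and ranged from -0.076 to 0.062 with single libraries left out. The causes were not tested. With 4 libraries per group and intervals as wide as those of Mecom and Prdm16, differences of several log2 units in those genes were not detectable; Hlf, Sox4 and low Mecom and Prdm16 values rest on few reads, and intervals cover the spread between libraries.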

Other observations

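Genes beside Mecom and Prdm16 in gene order did not follow them. Mynn, the protein-coding gene after Mecom, was at 771.6 to 1122.3 in 11B3-deleted libraries and 883.7 to 993.5 in p53-loss-only libraries, a 1.45-fold range over all 8, while Mecom spanned 1344-fold. Egfem1, on the other side, was at 1.0 to 55.9 in 11B3-deleted libraries and 1.0 to 297.1 in p53-loss-only libraries, highest in p53-loss-only library 3, where Mecom was lowest. Prdm16 spanned 2513-fold, and its neighbours Megf6, at 2.0 to 17.1 in 11B3-deleted libraries and 1.0 to 27.6 in p53-loss-only libraries, and Ttc34, at 1.0 to 2.1 and 1.0 to 5.9 in the same order of groups, stayed low where Prdm16 was high. Beside Bcl11a, Papolg kept to a 1.29-fold range.

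Other marker sums moved with members without passing adjustment over the 72 relations. Myb went with the monocyte sum (r = 0.90, exact permutation p = 0.00317; rho = 0.71, exact permutation p = 0.0576; adjusted p = 0.114 for r) and r was 0.72 without the 2 libraries farthest from the median sum (exact permutation p = 0.124). Csf1r, Ccr2 and Ly6c2 made up most of the monocyte sum. All its markers but Emr1 were highest in p53-loss-only library 3, where Myb was highest too, and Emr1 was at 964.8 there. In p53-loss-only library 4, where Myb was lowest, Cx3cr1 was second highest, at 3280.9. Cd34 went with the mast and basophil sum (r = 0.87, exact permutation p = 0.00625, and rho = 0.83, exact permutation p = 0.0154, with adjusted p = 0.15 for r), and r was 0.95 without the 2 farthest libraries (exact permutation p = 0.00833). Cpa3 and Mcpt8 made up most of that sum where it was highest, at 2764.8 and 889.4 in 11B3-deleted library 4. Prss34 went otherwise, at 93.7 in 11B3-deleted library 1 with Cd34 at 967.5. It was at 2.1 in p53-loss-only library 3 with Cd34 at 5463.9.

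None of the remaining marker lists held a called gene. All 7 endothelial markers had a higher mean log2 value in 11B3-deleted libraries (median log2 difference 0.64), as did 5 of 6 megakaryocyte markers (0.36) and 3 of 6 plasmacytoid dendritic markers (0.29). The mean was lower for 5 of 6 T and NK markers (median log2 difference -0.49), 6 of 7 myeloid blast markers (-0.41), 3 of 6 mature granulocyte markers (-0.03) and 5 of 6 monocyte markers (-0.65). Over all tested genes, 2.38% were lower at an unadjusted p under 0.05 by limma, and 2.15% did not overlap. Of the remaining marker lists, the monocyte list was the one with genes at such a p, 2 of 6, both lower and without overlap. They were Cx3cr1, a chemokine receptor (log2 difference -2.34, SE 0.78, limma adjusted p = 0.996), and Cd68, a macrophage lysosomal protein (log2 difference -2.16, SE 0.34, limma adjusted p = 0.288). By gene order Cd68 lies inside the interval from Sco1 to Alox12, the 1 gene of any list used here that does, so the number of monocytes and the number of gene copies cannot be told apart in its value, which also enters the monocyte sum. With single libraries left out, an alternative added after seeing the data, the median changed sign for megakaryocyte markers (-0.18 without 11B3-deleted library 4) and for mature granulocyte markers (0.28 without 11B3-deleted library 1, 0.19 without p53-loss-only library 1 and 0.25 without p53-loss-only library 2). For the partners and targets of Myb it was -0.01 without 11B3-deleted library 2.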
